A study of Drosophila melanogaster with 12 samples.

Results

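Small RNAs of testes from *Drosophila melanogaster* males with an added Y chromosome of the congo type (XYYcongo) were compared with those of XY control males. The comparison used 4 of the 12 libraries of the study, 2 per genotype, and every entry of the testis table except the spike-ins, which left 839 of 845 entries. The 2 other testis libraries, of males with an added Y chromosome of the ohio type (XYYohio), entered the same model and are given as further values. Their columns carry the code Cs, which the labels do not spell out, and they were read as XYYohio because the congo and control columns are named outright. The labels write the control as an XY genotype with a caret after the X that is not explained, and the added Y chromosomes are said only to come from genetic manipulation of strains. Flies of all groups were 2 days old and came from molasses food kept at 23 °C under a 14-hour light cycle. RNA came from testis tissue, and the number of animals per library is not given. The labels call the 2 libraries of a genotype biological replicates.

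The Drosophila Y chromosome is almost entirely heterochromatin, rich in satellite DNA, transposon copies and ribosomal DNA, with few protein-coding genes. In the germline, PIWI proteins bind small RNAs (piRNAs) that match transposons and repeats and silence them. In testis a large class of such RNAs comes from the Y-linked Suppressor of Stellate repeats and represses the X-linked Stellate genes. Short RNAs that map to tRNA, snoRNA and rRNA entries are fragments of those RNAs, and the tables do not separate read lengths.

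The unit throughout is scaled reads: whole reads multiplied by 1 factor per library. Non-spike reads numbered 714771 and 672218 in XYYcongo replicates 1 and 2, and 589490 and 1310076 in XY replicates 1 and 2. The 839 entries held 298 transposon and repeat entries (class TE), 310 tRNA, 186 snoRNA, 16 mitochondrial gene, 12 mitochondrial tRNA, 7 satellite, 6 telomeric, 2 rDNA and 2 Suste entries, each on the Plus or Minus strand of the listed entry. Suste is the table's name for the Suppressor of Stellate repeats, and its Minus strand took 7.16% to 15.2% of non-spike values in the 6 testis libraries, against 0.0424% to 1.01% in the 6 ovary libraries of the study. Small RNAs of ZAM, gypsy, Idefix and Gtwin, retroelements known from ovarian follicle cells, took 0.0592% to 0.131% in testis and 0.191% to 0.580% in ovary. XY replicate 1 had the fewest non-spike reads of the 6 testis libraries. In such bulk tissue, fewer cells of a type and less RNA per cell cannot be told apart.

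In the limma fit without a replicate block, the entries that changed in XYYcongo testis were small RNAs of satellites, transposons and other repeats. Of 618 entries with a mean of at least 5 scaled reads, 7 rose and 3 fell in XYYcongo against XY (limma on log2(value + 1), adjusted p under 0.05). These are 1.13% and 0.485% of the entries tested, or 1.62% in either direction, and 60 entries (9.71%) had an unadjusted p under 0.05. The rises were small RNAs of the AAGAC satellite on both strands, AAGAG satellite Plus, AAGAGAG satellite Minus, TABOR_I Plus, TOM_I Plus and HELENA_RT Minus. The falls were small RNAs of dodeca satellite Minus, RSP Minus and DM297_LTR Plus. No tRNA, snoRNA, mitochondrial, rDNA, telomeric or Suste entry was called in that fit. Some of the fits with a replicate block called tRNA or snoRNA entries, as given below. Each of the 10 calls was lost when the libraries were rescaled by TMM, by median-of-ratios or by spike-in totals. Spike-in reads numbered 2299861 and 216527 in XYYcongo replicates 1 and 2, 1972813 and 248355 in XYYohio, and 631570 and 742394 in XY. Spike-in scaling carries this spread between libraries into every entry, and left 1 entry at an unadjusted p under 0.05. On the whole reads, edgeR called 0 entries (81 at an unadjusted p under 0.05), while DESeq2 called 8 up and 3 down. With replicate number as a block, edgeR called 15 up (2.43%) and 3 down, and a limma fit of the 4 XYYcongo and XY libraries called 53 up (8.58%) and 3 down. Without XY replicate 1, 0 entries rose and 2 fell, and without XY replicate 2, 22 rose and 0 fell. Without XYYcongo replicate 2, 4 rose and 2 fell.

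**Figure D1:**
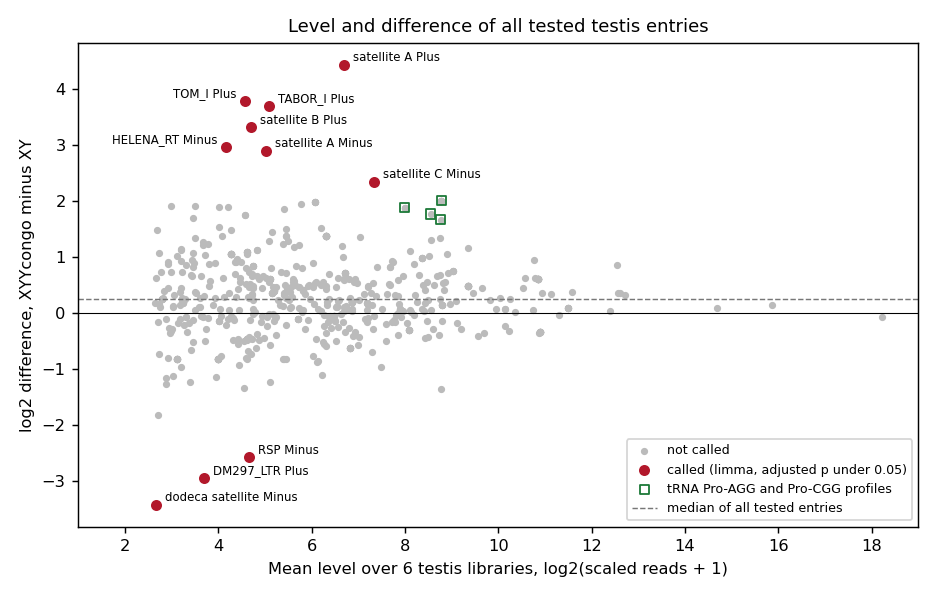
Each point is 1 of the 618 tested testis entries: the horizontal axis is its mean level over the 6 testis libraries as log2(scaled reads + 1), and the vertical axis is its log2 difference, XYYcongo minus XY. Red points are the 10 called entries (satellite A is AAGAC, B is AAGAG and C is AAGAGAG), green squares are the Pro-AGG and Pro-CGG tRNA profiles, and the dashed line is the median of all tested entries at 0.25. The called entries lie at low to middle levels, and the most abundant entries lie near the median.

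The median log2 difference over the 618 tested entries was 0.25 with the deposited scaling, −0.01 with TMM, −0.02 with median-of-ratios and −0.12 with spike-in totals. Differences are therefore read against 0.25 below. Between same-numbered libraries the median was 0.44 for replicate 1 and −0.03 for replicate 2. In 153 entries (24.8%) both XYYcongo libraries lay above both XY libraries, and in 51 (8.25%) both lay below.

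Satellites are short tandem repeats of heterochromatin, named here by their repeat unit, and 7 satellite entries were tested. 4 entries rose, 1 fell and 2 were not called, with a median log2 difference of 2.34 against 0.25 over all entries tested. The median was 2.07 with TMM, 1.89 with spike-in totals and 0.94 without XY replicate 1. On the whole reads, edgeR and DESeq2 called 0 satellite entries in either direction, each with and without the replicate block. AAGAC Plus had 157 and 187 scaled reads in XYYcongo replicates 1 and 2, 154 and 49.6 in XYYohio, and 0 and 63.3 in XY. Both XYYcongo libraries were above both XY libraries, and XY replicate 1 held no read, which allows up to 3 scaled reads. The log2 difference was 4.43 ± 0.66 (SE, adjusted p = 1.24e-08), the ratio of the 2 group means was 5.44, and the difference without XY replicate 1 was 1.42 and not called. Here and below, the SE and p of the main fit rest on the trend over all entries, not on the entry's own replicates. In limma with TMM scaling, where the spread of each entry also entered its error, the adjusted p of AAGAC Plus was 0.348. AAGAC Minus had 26.2 and 52.8 scaled reads in XYYcongo, 0 and 85.3 in XYYohio, and 0 and 25.4 in XY (2.89 ± 0.69, adjusted p = 0.00257). Its groups did not overlap, but XYYcongo replicate 1 and XY replicate 2 lay close together. It was not called without XYYcongo replicate 2 (2.40) or without XY replicate 1 (0.53).

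AAGAG Plus had 62.1 and 40.9 scaled reads in XYYcongo, 13.2 and 8.53 in XYYohio, and 0 and 25.8 in XY (3.31 ± 0.68, adjusted p = 0.000189). The groups did not overlap, XY replicate 1 was again at 0 reads, and the difference without it was 0.94 and not called. AAGAG Minus, the most abundant satellite entry, had 1209 and 3711 scaled reads in XYYcongo, 1202 and 2137 in XYYohio, and 1006 and 1203 in XY. XYYcongo replicate 1 and XY replicate 2 were almost equal, and the difference of 0.94 ± 0.67 was not called (adjusted p = 0.853). AAGAGAG Minus had 178 and 316 scaled reads in XYYcongo, 26.3 and 331 in XYYohio, and 23 and 91.5 in XY (2.34 ± 0.67, adjusted p = 0.0290). Both XYYcongo libraries were higher than both XY libraries, while XYYohio spanned the whole range. It was not called without XYYcongo replicate 1 (2.75), without XYYcongo replicate 2 (1.93) or without XY replicate 1 (1.36). AATAGAC Plus had 186 and 19.6 scaled reads in XYYcongo and 54 and 19.4 in XY, so its groups overlapped.

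Dodeca, a satellite with a repeat unit of 12 bases, was the satellite that fell. Its Minus entry had 0 reads in both XYYcongo libraries, 11.5 and 0 scaled reads in XYYohio, and 7 and 13.3 in XY. The fall was called at an adjusted p of 0.00238. With a floor of 3 reads per XYYcongo library, the XY mean of 10.2 was 4.06 times the mean floor of 2.50 scaled reads. The spread of the XY libraries does not enter that ratio, so it is not a lower bound on the fall. The call was lost without XY replicate 1 and without XY replicate 2, and in the 4-library fit with replicate number as a block (adjusted p = 0.0664, over a range of 0.000233 to 1.00 across its alternatives). The Responder repeat (RSP), the satellite target of the Segregation Distorter meiotic drive system, is listed in class TE. RSP Minus had 3.27 and 14.5 scaled reads in XYYcongo, 16.4 and 7.46 in XYYohio, and 30 and 74.6 in XY. All 4 libraries with an added Y chromosome were below both XY libraries, at −2.57 ± 0.67 for XYYcongo (adjusted p = 0.00923). The fall was not called without XYYcongo replicate 1 (−1.65) or without XY replicate 2 (−1.93), and edgeR with replicate number as a block called it (adjusted p = 0.0374). RSP Plus did not reach the mean of 5 and was not tested.

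**Figure D2:**
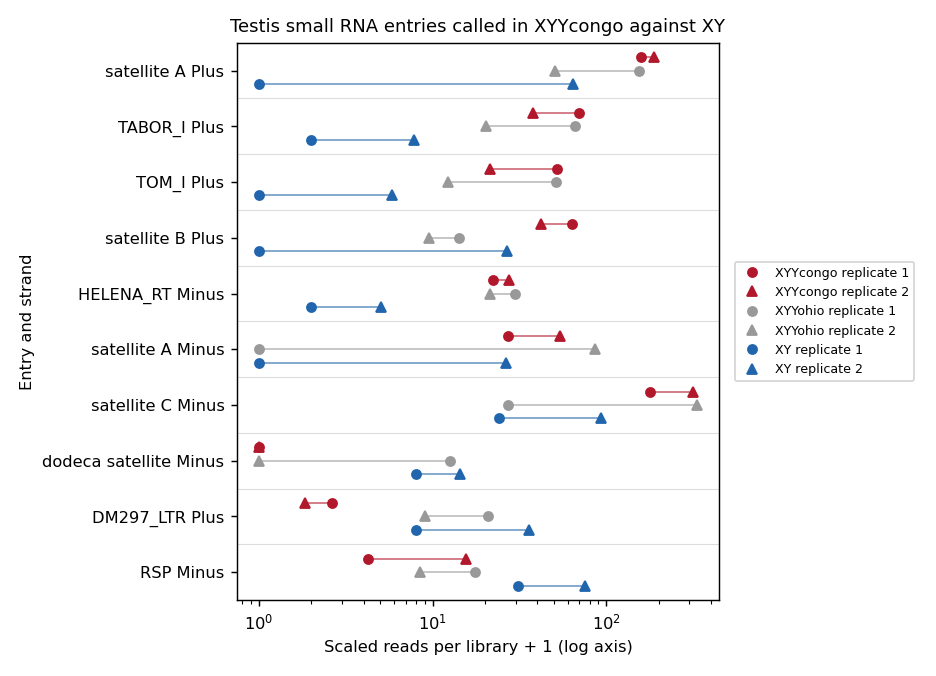
Scaled reads + 1 (log axis) of the 10 called entries in each testis library, with XYYcongo in red, XYYohio in grey and XY in blue, circles for replicate 1 and triangles for replicate 2. The 7 rises stand above the 3 falls, with satellite A for AAGAC, B for AAGAG and C for AAGAGAG. XY replicate 1 is the lowest XY value in every rise, and lies at 0 reads for AAGAC on both strands, AAGAG Plus and TOM_I Plus.

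Small RNAs of Tabor and Tom, LTR retrotransposons of the gypsy group, rose on the Plus strand of their internal parts. TABOR_I Plus had 68.7 and 36.6 scaled reads in XYYcongo, 64.9 and 19.2 in XYYohio, and 1 and 6.85 in XY (3.69 ± 0.67, adjusted p = 9.20e-06). TOM_I Plus had 50.7 and 20.4 scaled reads in XYYcongo, 50.1 and 11.2 in XYYohio, and 0 and 4.84 in XY (3.78 ± 0.69, adjusted p = 9.20e-06). The lower XYYcongo library exceeded the higher XY library in both elements, and the ratios of the group means were 13.4 for TABOR_I Plus and 14.7 for TOM_I Plus. Without XY replicate 1 the differences were 2.70 and 2.51, and neither was called. With replicate number as a block, edgeR called TABOR_I Plus (adjusted p = 0.0422) and did not call TOM_I Plus (adjusted p = 0.0777). The opposite strand of Tabor did not move alike, as TABOR_I Minus had 289 and 371 scaled reads in XYYcongo and 186 and 368 in XY, with a difference of 0.32 that was not called.

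HELENA_RT, of the LINE retrotransposon Helena, rose on the Minus strand. HELENA_RT Minus had 21.2 and 26.4 scaled reads in XYYcongo, 28.8 and 20.3 in XYYohio, and 1 and 4.03 in XY (2.96 ± 0.69, adjusted p = 0.00226). The added-Y libraries lay within a narrow range well above both XY libraries, and edgeR with the replicate block called it too (adjusted p = 0.0312). It was not called without XYYcongo replicate 2 (2.81) or without XY replicate 1 (2.29). HELENA_RT Plus had 13.1 and 9.36 scaled reads in XYYcongo and 2 and 2.42 in XY, also without overlap, with a difference of 1.91 ± 0.74 that was not called (adjusted p = 0.176).

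The long terminal repeat of 297, another gypsy-group element, fell on the Plus strand. DM297_LTR Plus had 1.63 and 0.851 scaled reads in XYYcongo, which are 2 reads and 1 read, against 19.7 and 8.00 in XYYohio and 7 and 34.7 in XY (−2.94 ± 0.72, adjusted p = 0.00384). In reads per unit of scaled depth, XYYcongo stood at 0.0468 of XY (3 against 93 reads, 95% exact interval 0.00948 to 0.141, counting error only). The XYYcongo libraries were below all 4 others. The call was lost without XYYcongo replicate 2 (−2.68) and without XY replicate 2 (−1.86). DM297_LTR Minus had 43.3 and 43.4 scaled reads in XYYcongo, 103 and 44.8 in XYYohio and 60 and 150 in XY (−1.11 ± 0.66, adjusted p = 0.720).

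The transposon class as a whole moved with the table. Of 229 tested TE entries, 3 rose and 2 fell, and their median difference of 0.27 stood beside 0.25 for all entries. XYYcongo lay above XY without overlap in 24.9% of TE entries (24.8% of all entries) and below in 7.42% (8.25% of all entries). Among 88 gypsy-group entries 2 rose and 1 fell (median 0.36), and 26 lay above XY without overlap. Of 36 LINE entries 1 rose and 0 fell (median 0.32), with 4 at an unadjusted p under 0.05. Without a block, no entry was called by limma among 13 of the copia group (median 0.23, 0 at an unadjusted p under 0.05), 20 of the BEL/Pao group (median −0.10, 2), 28 of the mdg1 and mdg3 groups (median 0.16, 1) and 17 DNA transposons with terminal inverted repeats (median 0.08, 0). With the replicate block, the 4-library limma fit called 1 copia, 2 BEL/Pao and 1 terminal inverted repeat entry up, and edgeR called 1 copia entry down. Under spike-in scaling the medians of the gypsy, LINE, copia, mdg and terminal inverted repeat lists were all below 0, and so was that of the whole TE class (−0.09), while the BEL/Pao median was −0.48. Without XY replicate 1 the TE median was −0.18, and without XY replicate 2 it was 0.67.

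Several transposon entries separated the genotypes without passing the limma threshold. Accord and Accord2 are gypsy-group elements. ACCORD2_I Minus had 71.1 and 79.1 scaled reads in XYYcongo, 100 and 34.7 in XYYohio, and 16 and 21.8 in XY (1.95 ± 0.66, adjusted p = 0.0898). ACCORD_I Minus had 56.4 and 56.2 scaled reads in XYYcongo, 68.2 and 36.8 in XYYohio, and 11 and 20.2 in XY (1.85 ± 0.65, adjusted p = 0.128). All added-Y libraries were above both XY libraries for both entries, and edgeR with the replicate block called ACCORD2_I Minus (adjusted p = 0.0459) but not ACCORD_I Minus (0.0596). DIVER2_I Minus, of a BEL/Pao element, had 43.3 and 73.2 scaled reads in XYYcongo and 13 and 28.2 in XY (1.50 ± 0.65, adjusted p = 0.364).

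Lower values without overlap were led by G6_DM, a LINE of the G element family. G6_DM Minus had 238 and 319 scaled reads in XYYcongo, 385 and 199 in XYYohio, and 540 and 926 in XY (−1.36 ± 0.68, adjusted p = 0.479). The added-Y libraries were all below both XY libraries, and edgeR with the replicate block called the difference (adjusted p = 0.0179). COPIA2LTR_DM Plus, the terminal repeat of a copia-group element, had 105 and 176 scaled reads in XYYcongo, 110 and 103 in XYYohio, and 186 and 382 in XY (−0.96 ± 0.67, adjusted p = 0.838; edgeR with the replicate block, adjusted p = 0.0278). Its highest XYYcongo value was just below its lowest XY value. ROO_LTR Plus and ROOA_I Minus, of the BEL/Pao element roo, differed by −1.33 and −0.87, Copia1-LTR_DM Minus by −0.83, and HETRP_DM Minus, a subtelomeric satellite repeat, by −0.85. None of these 4 was called by limma or by edgeR with the replicate block.

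Without a replicate block, tRNA fragments held no call by limma among 242 tested entries, which form 74 distinct value profiles because identical gene copies share their reads (32 entries at an unadjusted p under 0.05). Adding replicate number as a block left the 6-library limma fit at 0 tRNA calls (32 at an unadjusted p under 0.05). On the 4 XYYcongo and XY libraries, limma called 0 tRNA entries without the block. With it, at 1 residual degree of freedom, limma called 33 tRNA entries up (8 profiles). edgeR called 12 with the block (4 profiles, all of them proline tRNAs) and 0 without it (33 at an unadjusted p under 0.05), and DESeq2 called 17 with it (6 profiles) and 3 without it. The median over tRNA entries was 0.25, equal to that of all entries. Proline tRNAs with anticodons AGG and CGG were among the highest differences, together with Gly-TCC. Pro-AGG-1, a profile of 7 identical genes, had 365 and 1038 scaled reads in XYYcongo, 289 and 542 in XYYohio, and 72 and 324 in XY. Each replicate 1 was lower than its replicate 2, and within each number the order was XYYcongo, XYYohio, XY. The difference was 2.00 ± 0.68 (limma, adjusted p = 0.0898; edgeR with the replicate block, adjusted p = 0.0138). Pro-CGG-2 had 466 and 327 scaled reads in XYYcongo, 301 and 212 in XYYohio, and 84 and 133 in XY (1.88 ± 0.68, adjusted p = 0.128; edgeR with the block, 0.0311). Pro-CGG-3 differed by 1.76 and Pro-CGG-1 by 1.66, both without overlap and both called by edgeR only with the block (adjusted p = 0.0311 and 0.0488). Summed over the family, Pro-CGG had 1108 and 2231 scaled reads in XYYcongo against 273 and 734 in XY.

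The third proline family did not follow. Pro-TGG, whose 5 identical genes form 1 profile, had 3173 and 3149 scaled reads in XYYcongo, 3159 and 1781 in XYYohio, and 3302 and 2649 in XY, with overlapping groups and a difference of 0.10. Pro-AGG and Pro-CGG tRNAs are close in sequence, and how reads matching several genes were counted is not given, so their profiles may share reads.

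**Figure D3:**
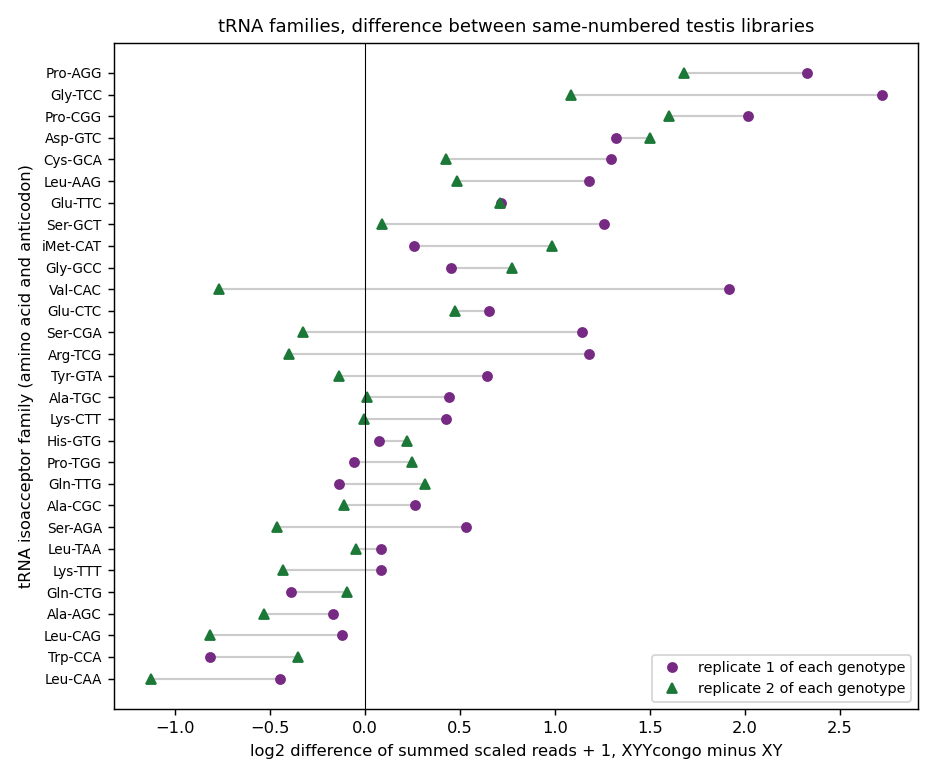
Log2 differences of summed scaled reads + 1, XYYcongo minus XY, for tRNA isoacceptor families with a mean of at least 20 scaled reads, given separately for the replicate 1 libraries (purple circles) and the replicate 2 libraries (green triangles). Pro-AGG, Pro-CGG, Gly-TCC and Asp-GTC are above 1 in both numbers, and Leu-CAA, Trp-CCA, Leu-CAG, Ala-AGC and Gln-CTG are below 0 in both.

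Of 45 tRNA families, 10 (22.2%) lay above XY without overlap, 5 (11.1%) lay below and 30 overlapped, beside 24.8% above and 8.25% below over all entries tested. Of the 5 below, 2 had no profile that reached the mean of 5. Gly-TCC had 197 and 97.0 scaled reads in XYYcongo, 104 and 61.8 in XYYohio, and 29 and 45.2 in XY, a mean log2 difference of 1.90. Both of its profiles were higher in XYYcongo, Gly-TCC-1 by 1.98 ± 0.66 (adjusted p = 0.0898) and Gly-TCC-2 by 1.74 ± 0.67 (adjusted p = 0.176). Asp-GTC had 194 and 319 scaled reads in XYYcongo, 254 and 194 in XYYohio, and 77 and 112 in XY (1.41). All 3 Asp-GTC profiles lay above XY without overlap. On the low side, Leu-CAA had 62.1 and 58.7 scaled reads in XYYcongo, 159 and 80.0 in XYYohio, and 85 and 129 in XY (−0.79), with all 4 of its profiles below XY. Trp-CCA had 84.2 and 134 scaled reads in XYYcongo and 149 and 172 in XY (−0.59). The 2 most abundant families, Ala-AGC (−0.35) and Gly-GCC (0.61), overlapped between the genotypes.

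An added Y chromosome brings further copies of Y-linked repeats such as Suppressor of Stellate, whose small RNAs were among the most abundant repeat small RNAs in testis. Suste Minus had 48803 and 86915 scaled reads in XYYcongo, 55125 and 44419 in XYYohio, and 43605 and 79771 in XY. XYYcongo was slightly above XY within each number, but the groups overlapped and the difference was 0.14 ± 0.57 (adjusted p = 0.975). Suste Plus had 1945 and 3165 scaled reads in XYYcongo and 1561 and 2489 in XY (0.33 ± 0.66). The Minus strand held 96.2% and 96.5% of Suste values in XYYcongo, and 96.5% and 97.0% in XY.

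DMHMR1 had the highest values of the TE-class repeats named here. The labels do not give the chromosomal location of the repeats in this paragraph. DMHMR1 Plus had 23862 and 35330 scaled reads in XYYcongo, 27597 and 16021 in XYYohio, and 22859 and 32560 in XY, a difference of 0.09 ± 0.60, and DMHMR1 Minus differed by 0.35. The groups of both strands overlapped. The 6 tested entries of the hoppel family of DNA transposons (PROTOP, PROTOP_A and PROTOP_B on each strand) overlapped too, with differences between −0.28 and 0.53. INE-1, a short Helitron-type repeat listed as DNAREP1_DM, differed by 0.93 ± 0.72 on the Minus strand and −0.06 ± 0.69 on the Plus strand.

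**Figure D4:**
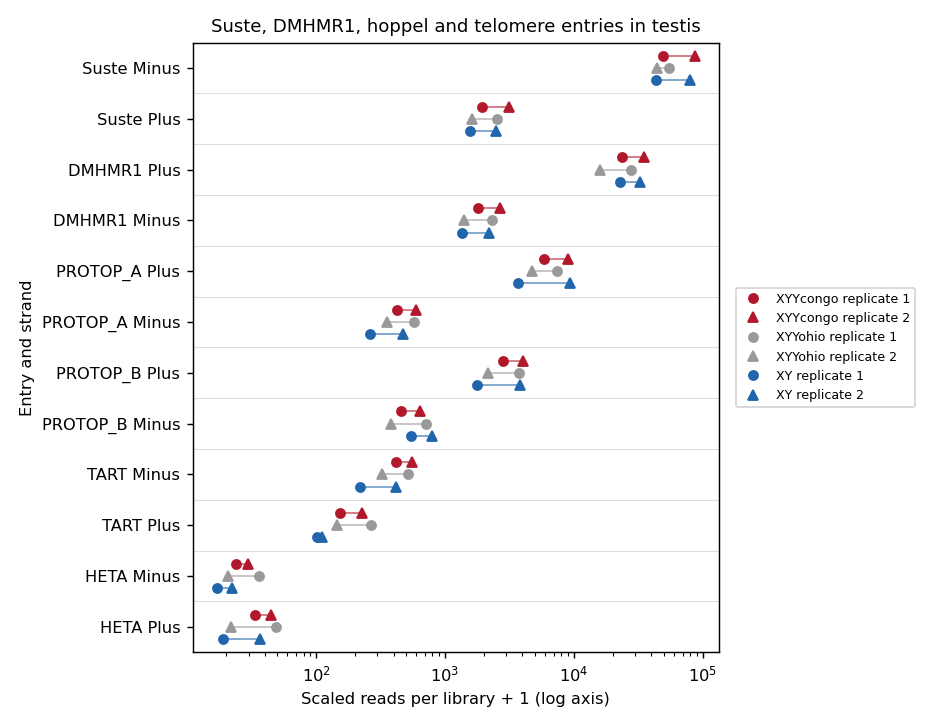
Scaled reads + 1 (log axis) per testis library for Suste, DMHMR1, 2 hoppel elements (PROTOP_A and PROTOP_B) and the telomere elements TART and HETA, in XYYcongo (red), XYYohio (grey) and XY (blue), circles for replicate 1 and triangles for replicate 2. The Suste, DMHMR1 and hoppel values of XYYcongo overlap those of XY, and TART Plus lies above XY without overlap.

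The telomere retrotransposons HeT-A, TAHRE and TART maintain chromosome ends in Drosophila in place of telomerase repeats. None of their 8 entries was called by limma (0 at an unadjusted p under 0.05), edgeR (1) or edgeR with the replicate block (2). All 8 differences were above 0, with a median of 0.74 against 0.25 over all entries, and they stayed above 0 with TMM (median 0.46) and spike-in scaling (0.31). With the deposited scaling most tested entries of any kind lay above 0. The 8 are both strands of each element, read in the same libraries, and are not independent. TART Plus had 154 and 228 scaled reads in XYYcongo, 267 and 145 in XYYohio, and 100 and 111 in XY (0.82 ± 0.67, adjusted p = 0.883). TART_B1 Plus had 27.8 and 40.9 scaled reads in XYYcongo, 41.1 and 24.0 in XYYohio, and 12 and 18.5 in XY (1.12 ± 0.66, adjusted p = 0.708). Neither overlapped XY, and HETA Minus, with 22.9 and 28.9 scaled reads in XYYcongo and 16 and 21.4 in XY, was above XY by 0.46. Without XY replicate 1 the median of the 8 entries was 0.16, and 7 were above 0.

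Ribosomal DNA arrays lie on the X and Y chromosomes. Fragments of the 45S rDNA unit on the Plus strand were the largest entry, with 345328 and 208894 scaled reads in XYYcongo, 277417 and 410432 in XYYohio, and 392612 and 204538 in XY. Replicates of a genotype differed more than the genotypes did, at −0.08 ± 0.52. 5S_DM Plus, of the 5S ribosomal RNA genes, had 6057 and 7951 scaled reads in XYYcongo, 6743 and 7501 in XYYohio, and 4005 and 3697 in XY. Every added-Y library was above both XY libraries, and the difference of 0.85 ± 0.64 was not called (adjusted p = 0.883), other than in the 4-library fit with the replicate block. R1 and R2 are retrotransposons that insert into the rDNA units. R1_DM Minus, at 1227 and 1520 scaled reads in XYYcongo and 907 and 1463 in XY, differed by 0.25, R1_DM Plus by −0.13, R2_DM Minus by 0.85 and R2_DM Plus by 1.47, and none was called by limma (0 at an unadjusted p under 0.05).

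Among 115 tested snoRNA entries and without a replicate block, none was called by limma (5 at an unadjusted p under 0.05), edgeR (3) or DESeq2 (5), and the median difference was 0.14. With the block, the 4-library limma fit called 2 up and DESeq2 called 1 down. XYYcongo lay above XY without overlap in 18.3% of snoRNA entries (24.8% of all entries) and below in 10.4% (8.25% of all entries). U3, the snoRNA of early rRNA processing, was the most abundant: snoRNA:U3:54Aa, whose values are shared with a second copy, had 1166 and 1133 scaled reads in XYYcongo and 1641 and 736 in XY (0.06). snoRNA:Tudor-SN-a had 23.7 and 19.6 scaled reads in XYYcongo, 35.3 and 13.9 in XYYohio, and 71 and 37.9 in XY (−1.23 ± 0.66, adjusted p = 0.560). snoRNA:Psi18S-301, a guide of pseudouridine formation in 18S rRNA, had 33.5 and 28.9 scaled reads in XYYcongo and 74 and 42.3 in XY (−0.83).

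As shares of non-spike values, satellites took 0.311% and 0.756% in XYYcongo and 0.185% and 0.273% in XY, without overlap. In XYYohio they took 0.259% and 0.428%, which overlaps both. The largest satellite entry was AAGAG Minus, which was not called, with a mean of 2460 scaled reads in XYYcongo and 1104 in XY. The TE share was 16.5% and 23.6% in XYYcongo against 12.7% and 24.5% in XY, and the tRNA share 12.8% and 21.4% against 10.6% and 18.8%. The 45S rDNA share was 59.2% and 36.6% in XYYcongo, against 66.6% and 38.8% in XY. Except for satellites, these class shares overlapped. The smallest two-sided p that an exact permutation of 2 and 2 libraries can give is 0.33, and shares were not tested.

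The share of values on the Minus strand was compared in 14 groups of entries. XYYcongo lay above XY without overlap in 3 (the gypsy group, rDNA retrotransposons and INE-1), below in 3 (the copia and BEL/Pao groups and Suste), and overlapped XY in 8. Complete separation of 2 and 2 libraries has an exact two-sided permutation p of 0.33. Strand shares were therefore not tested, and the separated groups are described by their values only. In the copia group, the Minus strand held 54.9% and 56.4% of values in XYYcongo, 54.3% and 58.4% in XYYohio, and 63.7% and 66.3% in XY. In the gypsy group it held 82.1% and 83.3% in XYYcongo, 82.1% and 82.5% in XYYohio, and 78.5% and 80.2% in XY. The added-Y libraries were all below XY in the copia group and all above XY in the gypsy group. In the BEL/Pao group the Minus strand held 55.4% and 54.1% in XYYcongo, 54.5% and 54.8% in XYYohio, and 55.9% and 59.1% in XY, so XYYcongo replicate 1 and XY replicate 1 were close. The rDNA retrotransposons had 86.1% and 85.7% on the Minus strand in XYYcongo and 82.0% and 83.4% in XY, and INE-1, at few reads, had 41.9% and 44.0% in XYYcongo and 15.4% and 36.8% in XY.

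Set directly against XYYohio, XYYcongo had 0 called entries of 618 by limma (8 at an unadjusted p under 0.05) and 0 by edgeR (31). These counts do not show that the added Y chromosomes act alike. The XYYcongo and XYYohio comparisons share the XY libraries, so only the values of each are given side by side above.

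The congo Y chromosome was also added to females, where ovaries of XXYcongo were compared with those of XX. The ovary table was normalized separately, so only differences within each table were used. HELENA_RT Minus was higher in both tissues, by 2.96 in testis and by 2.59 in ovary, where it had 92.0 and 66.2 scaled reads in XXYcongo and 10 and 14.7 in XX. Pro-AGG-1 had 241 and 466 scaled reads in XXYcongo ovary and 3 and 3.50 in XX ovary, a difference of 6.31 beside 2.00 in testis. Suste Minus, with a difference of 0.14 in testis, had 6842 and 10817 scaled reads in XXYcongo ovary and 440 and 381 in XX ovary (4.39). TOM_I Plus went the other way: 16.6 and 27.8 scaled reads in XXYcongo ovary against 60 and 107 in XX ovary. Ovaries of females with the ohio Y chromosome had 41.3 and 25.7 scaled reads of HELENA_RT Minus and 4291 and 5726 of Suste Minus. They had 1.72 and 0.734 of Pro-AGG-1 and 84.4 and 107 of TOM_I Plus.

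**Figure D5:**
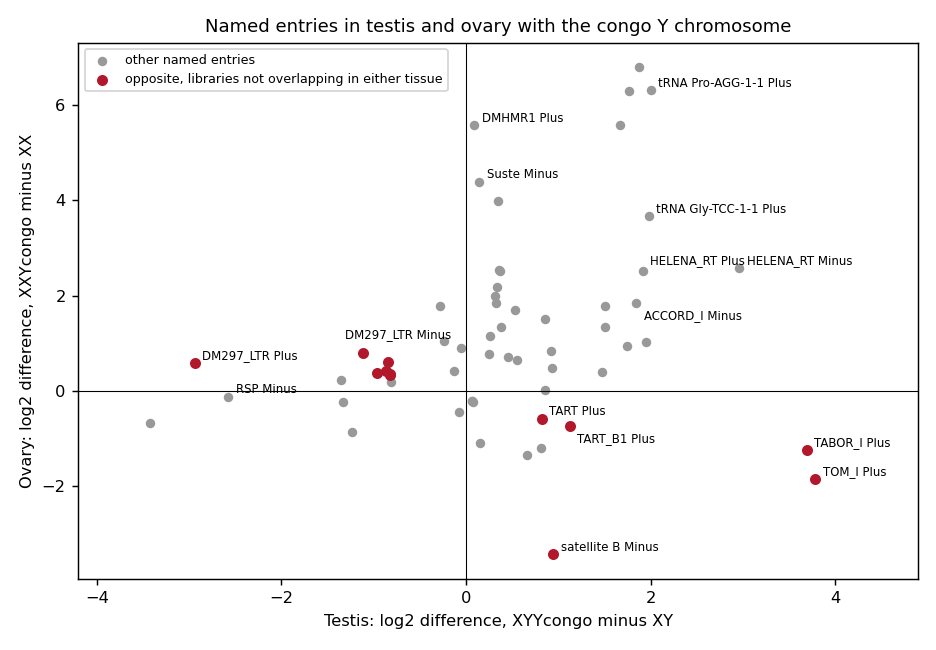
Log2 differences of the named entries that both tables list, with testis (XYYcongo minus XY) on the horizontal axis and ovary (XXYcongo minus XX) on the vertical axis. Red points moved in opposite directions with no overlap of libraries in either tissue; Pro-AGG-1 and HELENA_RT Minus were above 0 in both, Suste Minus and DMHMR1 Plus were near 0 in testis only, and satellite B is AAGAG.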

How the data were processed

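Small RNA-seq was done on testes and ovaries. Reads were handled with Trim Galore and with Bowtie 1.1.1, per the submitters' processing notes. Not given in the sources used here are the build, the annotation, how multi-mapping reads were counted and where the scale factors came from. The authors deposited whole read counts for XY and XX replicate 1, and for the other libraries a normalized signal, which is whole reads times 1 factor per library (100% of values whole within 0.01 of a read). In testis 1 read was worth 0.817 and 0.851 in XYYcongo, 0.822 and 0.533 in XYYohio, and 1 and 0.403 in XY. Gene symbols for all 524 FlyBase entries came from the BDGP6.54 annotation. The authors' analysis-of-variance column was not used.

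The 6 testis libraries entered 1 limma 3.58.1 fit (R 4.3.3, eBayes with trend) of log2(value + 1), pseudocount 1, without spike-ins, for entries with a mean of at least 5, two-sided, Benjamini-Hochberg adjusted over 618 entries. Adjusted p-values are limma's where no tool is named. The fit left 3 residual degrees of freedom and infinite prior degrees of freedom, so the error came from the trend alone. The pseudocount shrinks fold changes of low entries, but they are not lower bounds. For the called rises with no read in XY replicate 1, limma differences exceeded those of edgeR on whole reads without a block. AAGAC Plus differed by 4.43 in limma and 2.39 in edgeR, AAGAC Minus by 2.89 and 1.41. AAGAG Plus differed by 3.31 and 1.85, and TOM_I Plus by 3.78 and 3.50. edgeR 4.0.16 and DESeq2 1.42.0 were run on recovered reads as alternatives, with other scalings, filters, blocks and each library left out. The procedures were tested on simulated data.

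Same-numbered libraries were taken as pairs in the fits with a replicate block and in the differences given by number. The main limma fit had no block, so its errors and p-values are unpaired. Over the 618 entries, deviations of same-numbered libraries from the group means correlated at 0.35 to 0.41 in all 3 pairs of genotypes. The composition of the spike-ins differed by number as well: Spike_1 took 62.1% to 87.1% of spike-in values in replicate 1 and 0.106% to 0.814% in replicate 2. The labels do not say what a number stands for. Entries named are all those called, the 10 largest uncalled differences each way without overlap and with a mean of at least 20, and fixed repeats; TABOR_I Minus and the tRNA families were added after their values were seen. The entries and lists were chosen with earlier results of these data known.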

Additional observations from a re-analysis of the deposited data

Results flagged for a closer look

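Named entries differed in direction between testis (XYYcongo minus XY) and ovary (XXYcongo minus XX) in 12 cases, with both libraries of each group on the stated side and no overlap in either tissue. All but TART Plus, TART_B1 Plus and AAGAG Minus were named for their testis values, so their separation in testis came with the choice. The share of all entries that differed in this way was not computed, and the count is a description only. The difference between tissues was not tested, because the 2 tables were normalized separately, and values below are the testis log2 difference minus the ovary log2 difference. Higher in testis and lower in ovary were TOM_I Plus (5.63), TABOR_I Plus (4.92), satellite AAGAG Minus (4.38), TART_B1 Plus (1.85) and TART Plus (1.41). TABOR_I Plus had 48.3 and 59.1 scaled reads in XXYcongo ovary and 103 and 157 in XX ovary. AAGAG Minus had 12.4 and 0 scaled reads in XXYcongo ovary and 45 and 32.9 in XX ovary.

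Lower in testis and higher in ovary were DM297_LTR Plus (−3.53), DM297_LTR Minus (−1.92), HETRP_DM Minus (−1.46), COPIA2LTR_DM Plus (−1.33), ROOA_I Minus (−1.29), Copia1-LTR_DM Minus (−1.19) and snoRNA:Psi18S-301 Plus (−1.17). DM297_LTR Plus had 116 and 122 scaled reads in XXYcongo ovary and 89 and 68.5 in XX ovary. Only TABOR_I Plus, TOM_I Plus and DM297_LTR Plus of the 12 were called in testis by limma.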

How the results depend on the processing

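The counts of 7 rises and 3 falls moved with the scaling and with single libraries. The log2 differences themselves changed little with TMM: AAGAC Plus went from 4.43 to 4.35 and AAGAGAG Minus from 2.34 to 2.07. The prior degrees of freedom were infinite in the main fit and with spike-in scaling. They were 2.97 with TMM and 3.16 with median-of-ratios, where the spread of each entry also entered its error. There were 0 rises and 0 falls with TMM scaling (88 entries at an unadjusted p under 0.05), median-of-ratios scaling (83), spike-in total scaling (1) and edgeR on the whole reads (81). A mean of at least 20 left 5 rises and 0 falls among 464 entries tested. Leaving out 1 library gave 0 to 22 rises and 0 to 3 falls. With the replicate block, the 6-library limma fit made the same 10 calls, and the 4-library fit, with 1 residual degree of freedom, gave 53 rises (28 profiles) and 3 falls. The block was added after seeing the data to edgeR, which then gave 15 rises (7 profiles) and 3 falls, of which 3 entries were among the 10, and to DESeq2, which gave 24 rises and 6 falls, of which 5 were among the 10. Beyond the blocked values given with the results, the block in the 4-library fit called 12 of the named entries not called without it, among them satellite AAGAG Minus (adjusted p = 0.0118) and G6_DM Minus (0.000481), and it changed no other call but that of dodeca. The other alternatives gave 6 to 8 rises and 3 falls. No called entry changed sign under any alternative run. Of the 64 named entries tested, 8 uncalled ones changed sign with TMM, 13 with spike-in scaling and 11 without XY replicate 1. Leaving out 1 library turned the sign of the TE, tRNA, snoRNA and 45S rDNA share differences in at least 1 case each, and that of satellites stayed above 0. The cause of these dependences was not tested. Low counts limit DM297_LTR Plus, dodeca and the satellite entries at 0 reads.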
